A study of Rattus norvegicus with 12 samples.

Results

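The genes described here mark T cells (Cd3d, Cd3e, Cd4, Cd8a), B cells (Cd79b, Ms4a1) and organized lymphoid tissue (the chemokines Cxcl13, Ccl19, Ccl21). The 9 genes were chosen by name, with earlier results of these data known. Their probes were found on the array through the RefSeq accession of each probe for 8 of them. The probe of Ms4a1 carries an accession that the RefSeq table used here does not list, and it was named only through the lists of differentially expressed (DE) genes that the authors deposited, so Ms4a1 is known here because it was on such a list, and its differences are not independent of that listing. Each gene had 1 probe, and all 9 probes were well above background on all 12 arrays, among 21239 detected probes of 30367 for rat transcripts. Lung RNA came from the left upper lobe of male Sprague-Dawley rats, labelled 8 to 12 weeks of age, with 3 rats in each of 4 groups. Control rats received air and saline. The CS+LPS rats received cigarette smoke (CS) and intratracheal lipopolysaccharide (LPS), which together serve as a model of chronic obstructive pulmonary disease (COPD). The CS+LPS+NaHS rats received the same exposure after sodium hydrosulfide (NaHS), a donor of hydrogen sulfide. The CS+LPS+PPG rats received it after propargylglycine (PPG), an inhibitor of the hydrogen sulfide-forming enzyme cystathionine-γ-lyase. No group analysed here received NaHS or PPG without smoke and LPS.

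The CD3 chains carry the signal of the T cell receptor, and CD4 and CD8 are the co-receptors that divide T cells into helper and cytotoxic cells. CD79b is the signalling chain of the B cell receptor, and MS4A1, or CD20, is a surface protein of mature B cells. CXCL13 draws B cells through the receptor CXCR5 into follicles, while CCL19 and CCL21 draw T cells and dendritic cells through CCR7 into the T cell zones beside them, and these chemokines are known from lymphoid follicles that form around airways in chronically inflamed lungs. The RNA came from whole tissue, so fewer cells of a type and less RNA per cell cannot be told apart.

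Signals are given as normalized log2 signal, on which a difference of 1 is a 2-fold change, and levels of different probes cannot be compared with each other. The arrays lay on 2 slides, with 2 Control, 3 CS+LPS+NaHS and 3 CS+LPS+PPG arrays on slide 1 and Control replicate 3 with the 3 CS+LPS arrays on slide 2. A difference between CS+LPS and a treated group was therefore also a difference between slides. Control replicate 3 stood apart from the other arrays, with Pearson correlations over the detected probes of 0.936 to 0.956 against at least 0.975 among the rest, and with the lowest 75th percentile of signal (856, against 1430 to 2222). The 8 lung epithelium markers tested as a check of the tissue were all detected, at a mean of 16.28 to 16.49 in Control and 16.07 to 16.37 in the other groups. This mean hides opposite shifts on Control replicate 3. There Foxj1 was 13.43, against 11.41 and 11.43 on the other Control arrays, and Scgb1a1 18.53 against 17.45 and 17.47. Ager was lower, at 14.17 against 15.68 and 15.70, as was Sftpa1, at 16.03 against 17.35 and 17.12. The rats are labelled as replicates, and p-values measure the spread between these arrays. A gene was called when its fold change was at least 2 and the unadjusted two-sided p of limma was under 0.05, and adjusted p-values cover all detected probes.

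Both B cell genes rose against Control in all 3 exposed groups. Cd79b stood at 9.91, 10.65 and 9.70 in Control, 10.78, 11.47 and 11.74 in CS+LPS, 11.28, 11.36 and 11.27 in CS+LPS+NaHS and 10.93, 11.54 and 11.02 in CS+LPS+PPG. All 9 exposed arrays lay above all 3 Control arrays, and the CS+LPS+NaHS arrays were the most alike. Compared with Control, Cd79b rose by 1.24 in CS+LPS (SE 0.29, adjusted p = 0.0555), by 1.22 in CS+LPS+NaHS (SE 0.29, adjusted p = 0.135) and by 1.08 in CS+LPS+PPG (SE 0.29, adjusted p = 0.0575) on the log2 scale. Ms4a1 stood at 6.50, 7.00 and 7.09 in Control, 7.55, 8.01 and 8.24 in CS+LPS, 8.02, 8.17 and 7.88 in CS+LPS+NaHS and 7.82, 8.49 and 8.14 in CS+LPS+PPG. Here too no exposed array reached down to the Control arrays. The Ms4a1 differences were 1.07 in CS+LPS (SE 0.23, adjusted p = 0.045), 1.16 in CS+LPS+NaHS (SE 0.23, adjusted p = 0.106) and 1.29 in CS+LPS+PPG (SE 0.23, adjusted p = 0.0242). The 3 comparisons share the Control arrays.

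Cd79b and Ms4a1 were the 2 called members of the 9 in CS+LPS against Control, where 4.56% of all detected probes were called and 1.65% were called higher. The same 2 genes were called in CS+LPS+NaHS against Control, where 2.67% of probes were called and 1.3% were called higher. Against Control, 3 members were called in CS+LPS+PPG, Cd3d besides these, with 4.38% of probes called and 2.32% called higher. Ms4a1 was named only through the authors' lists of DE genes, so its part in these counts is not independent of that listing. Among the 8 members named through RefSeq, Cd79b alone was called in CS+LPS and in CS+LPS+NaHS, and Cd79b and Cd3d in CS+LPS+PPG. The share of all probes whose groups did not overlap, with the exposed group higher, was 12.9%, 12.7% and 18.7% in the 3 comparisons. The members' median differences were 0.36, 0.31 and 0.67, against -0.04, 0.00 and -0.01 over all detected probes. After Control replicate 3 was left out, 2.95%, 2.02% and 3.16% of all probes were called in the comparisons of the 3 exposed groups with Control. Cd79b then differed from Control by 1.05 in CS+LPS and 1.03 in CS+LPS+NaHS, which were still called, and by 0.89 in CS+LPS+PPG, which was not. Ms4a1 was called in each of the 3 comparisons without that array, at 1.19, 1.28 and 1.40. With slide as a block, CS+LPS was set against Control replicate 3 alone, and Cd79b differed by 1.62 and was called while Ms4a1 differed by 0.84 and was not. With normexp background correction, Ms4a1 differed by 0.55 in CS+LPS, 0.61 in CS+LPS+NaHS and 0.74 in CS+LPS+PPG and was called in none of them, while the median of all probes moved to -0.14, -0.10 and -0.09.

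**Figure D1:**
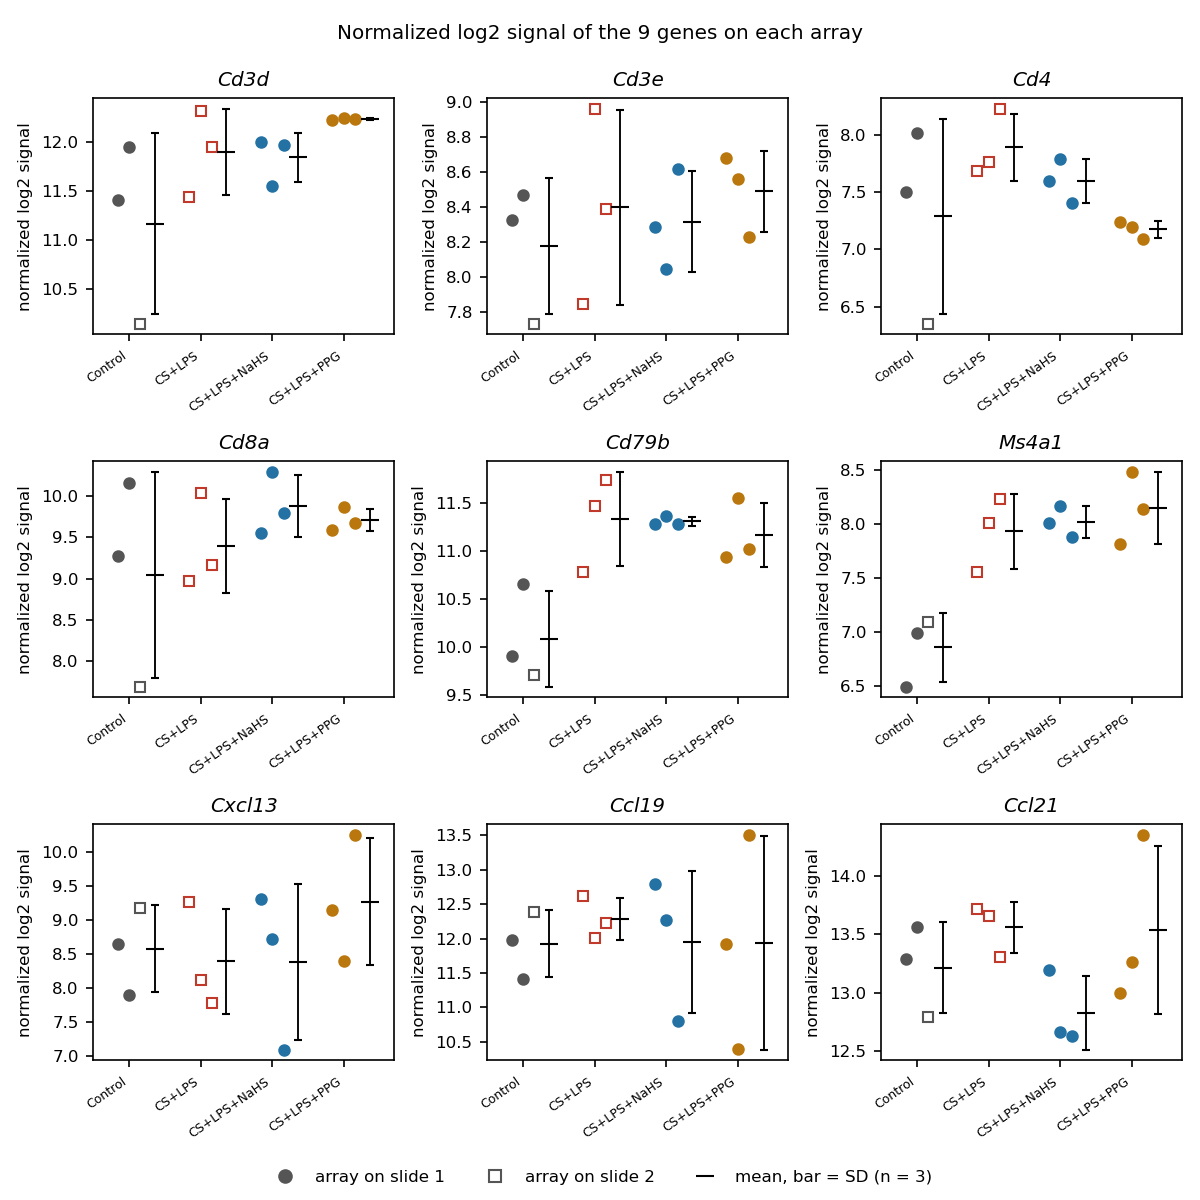
Normalized log2 signal (vertical axis) of each of the 9 genes on the 12 arrays, by group (horizontal axis). Filled circles are arrays on slide 1, open squares arrays on slide 2, and the black mark and bar give the mean and SD of 3 arrays. For Cd79b and Ms4a1 all exposed arrays sit above the Control arrays, and the lowest Control square, replicate 3, is at 10.15 for Cd3d and 7.70 for Cd8a.

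Of 23 other B cell genes, listed with earlier results of these data known, 19 were detected and named through RefSeq. Their counts are a description and not an independent check of Cd79b and Ms4a1. In CS+LPS against Control 3 of the 19 rose and 0 fell, with 14 higher and 5 lower and a median difference of 0.63. Cd22, an inhibitory co-receptor of B cells, rose by 1.29 (SE 0.34, adjusted p = 0.0746), Fcer2, the low-affinity IgE receptor CD23, by 1.17 (adjusted p = 0.124), and Fcrla, an Fc receptor-like protein of B cells, by 1.02 (adjusted p = 0.18). In CS+LPS+NaHS against Control 5 of the 19 rose and 0 fell, with a median of 0.79. These were Fcrla (1.70), Fcer2 (1.42), Cd22 (1.16), the complement receptor Cr2 (1.12) and the B cell receptor adaptor Blnk (1.04), with adjusted p between 0.121 and 0.221. In CS+LPS+PPG against Control, Fcer2 (1.20, adjusted p = 0.0915) was the 1 of 19 that rose, 0 fell, and the median was 0.45. Of all detected probes 1.65%, 1.3% and 2.32% were called higher in these 3 comparisons, in the same order. Fcer2 was well above background on 1 of 3 Control arrays and Cd22 on 2 of 3, so both passed the filter through the exposed groups and their Control levels are uncertain. Among the 16 list genes above background on all 12 arrays the counts were 1, 3 and 0, Fcrla in CS+LPS and Fcrla, Blnk and Cr2 in CS+LPS+NaHS, with medians of 0.58, 0.71 and 0.42. Of all probes that passed this filter 3.54%, 2.09% and 3.54% were called in either direction. Bcl6 and Pou2af1, the most intense list genes after Fcrla, were called in none of these comparisons, with -0.53 and 0.72 in CS+LPS. The mean of the 19 genes lay at 8.24 to 8.61 on the Control arrays, at 8.82 to 9.08 on those of CS+LPS, at 9.05 to 9.13 in CS+LPS+NaHS and 8.74 to 8.86 in CS+LPS+PPG, so no exposed array overlapped with Control. The log2 of their summed signal, which a few intense genes carry, did overlap, at 14.37 to 14.96 in Control and 14.72 to 15.68 in the exposed groups. After Control replicate 3 was left out the counts were 2, 5 and 2 of 19, and with normexp 0, 1 and 0. Of all probes 2.95%, 2.02% and 3.16% were called in either direction without that array, and 2.09%, 1.2% and 1.81% with normexp. Cd79a and Fcrl1, which like Ms4a1 were named only through the authors' lists and are not counted above, differed by 0.87 and 0.80 in CS+LPS, by 1.10 and 1.03 in CS+LPS+NaHS, and by 0.71 and 0.52 in CS+LPS+PPG.

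Plasma cell genes were read from a short list, of which 6 of 8 were detected, and 2 of the 6 rose in CS+LPS against Control while 0 fell. There 1.65% of all detected probes were called higher. Tnfrsf17, the receptor BCMA that sustains plasma cells, stood at 8.74, 8.59 and 8.19 in Control, 9.11, 9.90 and 9.96 in CS+LPS, 9.02, 8.20 and 7.92 in CS+LPS+NaHS and 9.26, 8.65 and 9.77 in CS+LPS+PPG. The CS+LPS arrays lay above all Control and all CS+LPS+NaHS arrays, as for 12.9% and 8.04% of all probes in these directions. Compared with Control, Tnfrsf17 rose by 1.16 in CS+LPS (SE 0.36, adjusted p = 0.0989). Compared with CS+LPS, it fell by 1.28 in CS+LPS+NaHS (SE 0.36, adjusted p = 0.183), which was also a difference between slides. In that comparison 1.7% of all detected probes were called in either direction. Mzb1, a chaperone of immunoglobulin assembly, rose by 1.12 in CS+LPS against Control (adjusted p = 0.0979) and differed by -0.91 (adjusted p = 0.365) between CS+LPS+NaHS and CS+LPS, which was not called. The most intense genes of this list, Sdc1 and Xbp1, which other cells of the lung also make, differed by 0.02 and 0.16 in CS+LPS against Control and were not called. Without Control replicate 3 the CS+LPS count fell from 2 to 0 of 6. In CS+LPS+NaHS against CS+LPS Tnfrsf17 was still called, but that array is in neither of these groups. Leaving it out cannot move this difference and alters only its p-value.

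Of the 4 T cell genes Cd3d was called, in 1 comparison, and Control replicate 3 was the lowest of the 12 arrays for each of the 4. Cd3d stood at 11.41, 11.95 and 10.15 in Control, 11.44, 12.32 and 11.95 in CS+LPS, 12.01, 11.56 and 11.98 in CS+LPS+NaHS and 12.23, 12.25 and 12.24 in CS+LPS+PPG. The CS+LPS+PPG arrays nearly coincided and lay above all Control arrays. Cd3d rose by 1.07 in CS+LPS+PPG against Control (SE 0.38, 95% confidence interval 0.22 to 1.91, adjusted p = 0.105). Without Control replicate 3 that difference was 0.56 (adjusted p = 0.203) and it was not called. In CS+LPS and CS+LPS+NaHS against Control, Cd3d differed by 0.73 and 0.68 and was not called. Its value in CS+LPS was 1.12 without Control replicate 2 and 1.75 (adjusted p = 0.00258) with slide as a block, which sets CS+LPS against Control replicate 3 alone, and it was called in both. Cd3e, the CD3 chain that pairs with Cd3d, ranged from 7.74 to 8.96 over the 12 arrays, and its group means were 8.18 ± 0.39 in Control, 8.40 ± 0.56 in CS+LPS, 8.32 ± 0.29 in CS+LPS+NaHS and 8.49 ± 0.23 in CS+LPS+PPG (SD, n = 3). The groups overlapped throughout, and the differences from Control were 0.22, 0.14 and 0.31, with 95% intervals between -0.50 and 0.95.

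Neither co-receptor was called against Control in the fit without a slide term. Cd8a stood at 9.27, 10.16 and 7.70 in Control, 8.97, 10.04 and 9.16 in CS+LPS, 9.56, 10.29 and 9.80 in CS+LPS+NaHS and 9.59, 9.86 and 9.67 in CS+LPS+PPG. Every group overlapped with Control, whose own arrays spanned the widest range. The differences from Control were 0.35 (-0.78 to 1.47) in CS+LPS, 0.84 (-0.29 to 1.96) in CS+LPS+NaHS and 0.67 (-0.46 to 1.79) in CS+LPS+PPG, with 95% intervals in brackets, and none was called. Without Control replicate 3 they were -0.33, 0.16 and -0.01, so the direction in CS+LPS and CS+LPS+PPG turned. Without Control replicate 2, the highest Control array, Cd8a was called in CS+LPS+NaHS and in CS+LPS+PPG and Cd3d in all 3 exposed groups. Cd4 stood at 7.50, 8.01 and 6.35 in Control, 7.69, 7.76 and 8.23 in CS+LPS, 7.60, 7.79 and 7.40 in CS+LPS+NaHS and 7.24, 7.19 and 7.09 in CS+LPS+PPG. The CS+LPS+PPG arrays lay close together and below every other array except Control replicate 3. Cd4 differed from Control by 0.60, 0.31 and -0.11 in the 3 exposed groups and was not called. With that array left out these were 0.14, -0.16 and -0.58, the direction in CS+LPS+NaHS turned, and the last (adjusted p = 0.12) stayed under a 2-fold change. With slide as a block Cd4 and Cd8a were called in CS+LPS, at 1.54 (adjusted p = 0.00174) and 1.69 (adjusted p = 0.0133) above Control replicate 3. In the rat macrophages also carry CD4.

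Of 31 further T cell genes 24 were detected. In CS+LPS against Control 1 of the 24 rose, the adhesion receptor Cd2, by 1.46 (SE 0.59, adjusted p = 0.163), and 0 fell. There 10 of 24 passed an unadjusted p under 0.05 by limma, as did 25.2% of all probes. In CS+LPS+NaHS against Control 0 of 24 were called by limma, 5 passed an unadjusted p under 0.05, as did 17.1% of all probes, and the median was 0.22. Against Control 6 of 24 rose in CS+LPS+PPG and 0 fell, with 21 higher and 3 lower and a median of 0.30. They were Cd2 (1.74), the third CD3 chain Cd3g (1.13), the inhibitory receptor Cd5 (1.11), the costimulator Icos (1.13), the SLAM adaptor Sh2d1a (1.01) and the receptor-associated adaptor Trat1 (1.23), with adjusted p between 0.0548 and 0.119. Trat1 was well above background on all 3 CS+LPS+PPG arrays and on 1 of 3 Control arrays, and Cd2 on 2 of 3 Control arrays, so their Control levels are uncertain. Among the 21 list genes above background on all 12 arrays the counts were 0, 0 and 4, the last being Cd3g, Cd5, Icos and Sh2d1a. Of all probes that passed this filter 3.54%, 2.09% and 3.54% were called in either direction. Tbx21 and Cd6, the most intense list genes besides Cd3g, differed by -0.05 and 0.45 in CS+LPS+PPG against Control and were not called. The mean of the 24 genes lay at 8.31 to 9.03 in Control, at 8.77 to 9.25 on the arrays of CS+LPS, at 8.99 to 9.02 in CS+LPS+NaHS and 9.10 to 9.19 in CS+LPS+PPG. The log2 of their summed signal, which Tbx21 mostly carries, was 15.92 to 16.71 in Control and 15.87 to 16.38 in the exposed groups. Tbx21 alone stood at 15.35 to 15.98 in the exposed groups. In Control it stood at 15.49, 15.57 and 16.53, the last on Control replicate 3. After that array was left out the counts were 0, 0 and 0 of 24 and the medians 0.02, 0.15 and 0.27. With slide as a block, which sets CS+LPS against that array alone, 7 of 24 rose and 1 fell in CS+LPS and 0 were called in CS+LPS+PPG, where 22.7% and 3.11% of all probes were called.

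NK cells and cytotoxic T cells share granule genes, so 15 of them were read beside the T cell genes, of which 11 were detected. Called higher were 1 of 11 in CS+LPS, 4 in CS+LPS+NaHS and 4 in CS+LPS+PPG against Control, and 0 were called lower. Of all detected probes 1.65%, 1.3% and 2.32% were called higher, in the same order. Nkg7, a protein of cytotoxic granules, rose by 1.20 in CS+LPS+NaHS (adjusted p = 0.159) and 1.24 in CS+LPS+PPG (adjusted p = 0.06). Gzma, the protease granzyme A, rose by 1.05 and 1.39 (adjusted p = 0.258 and 0.0761), and the protease Ctsw rose in the 3 exposed groups, taken in the same order, by 1.64, 1.30 and 1.77 (adjusted p = 0.114, 0.265 and 0.076). The pore-forming protein Prf1 rose in CS+LPS+NaHS (1.08) and the NK receptor Ncr1 in CS+LPS+PPG (1.35). The mean of the 11 genes was lowest on Control replicate 3, at 8.67, and reached 9.99 on Control replicate 2, within the CS+LPS range of 9.53 to 10.23. Ctsw and Ncr1 were each well above background on 2 of 3 Control arrays, and Klrc1, which enters the mean, on 0 of 3, so their Control levels are uncertain. Among the 8 list genes above background on all 12 arrays the counts were 0, 3 and 2. Without Control replicate 3 the counts over the whole list were 0, 1 and 1 of 11. In CS+LPS+PPG against CS+LPS, Ncr1 was the 1 of 11 that rose, by 1.43 (adjusted p = 0.415), where 2.05% of all probes were called in either direction.

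**Figure D2:**
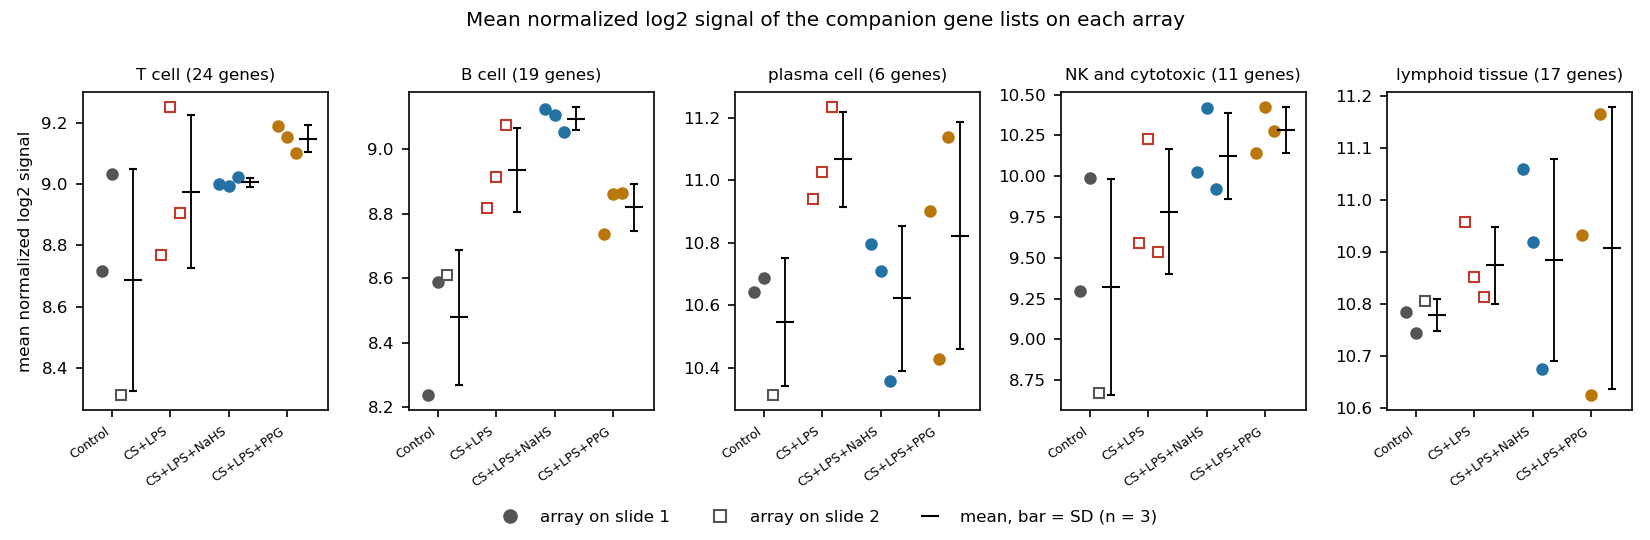
Mean normalized log2 signal (vertical axis) of 5 gene lists on each array, by group (horizontal axis). Symbols are as in the plot of single genes, with the mean and SD of 3 arrays in black, and the lists leave out the 9 members. The B cell panel shows all exposed arrays above 8.61, the highest Control array, while in the T cell and NK panels Control replicate 3 is the lowest point.

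Of the 3 lymphoid chemokines none was called in any of the 5 comparisons, and rats of 1 group lay far apart for Cxcl13 and Ccl19. Cxcl13 stood at 8.65, 7.90 and 9.18 in Control, 9.26, 8.12 and 7.78 in CS+LPS, 9.31, 8.72 and 7.09 in CS+LPS+NaHS and 9.15, 8.39 and 10.25 in CS+LPS+PPG. The lowest and the highest array were CS+LPS+NaHS replicate 3 and CS+LPS+PPG replicate 3, and every pair of groups overlapped. Cxcl13 differed from Control by -0.19 (-1.60 to 1.22) in CS+LPS, -0.20 (-1.61 to 1.21) in CS+LPS+NaHS and 0.69 (-0.72 to 2.10) in CS+LPS+PPG, with 95% intervals in brackets. Ccl19 stood at 11.98, 11.42 and 12.38 in Control, 12.62, 12.01 and 12.22 in CS+LPS, 12.79, 12.28 and 10.80 in CS+LPS+NaHS and 11.92, 10.40 and 13.51 in CS+LPS+PPG. The 3 CS+LPS+PPG rats held both the lowest and the highest of the 12 values, and CS+LPS+NaHS replicate 3 was the next lowest. Ccl19 differed from Control by 0.36, 0.03 and 0.02 (SE 0.69 each). Ccl21 stood at 13.28, 13.56 and 12.79 in Control, 13.71, 13.65 and 13.31 in CS+LPS, 13.19, 12.66 and 12.63 in CS+LPS+NaHS and 13.00, 13.26 and 14.35 in CS+LPS+PPG. Again CS+LPS+PPG replicate 3 was the highest array, and the 3 CS+LPS arrays lay above the 3 CS+LPS+NaHS arrays. Ccl21 differed from Control by 0.34, -0.38 and 0.32 (SE 0.33 each).

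The promoters of the chemokine genes are shown because NF-κB, a known regulator of lymphoid chemokines, binds a short motif that can be looked for in them. They hold 250 bases before and 50 bases after the gene start in RefSeq's table of build GRCr8, written 5′ to 3′ on the gene's strand, while the array was designed on an earlier build. Capitals mark matches to 1 form of the NF-κB motif, GGGA and CC with any 4 bases between them, on either strand. Cxcl13 lies at chr14:13917871-13918170, minus strand, Ccl19 at chr5:61761115-61761414, minus strand and Ccl21 at chr5:61777466-61777765, minus strand.
Cxcl13: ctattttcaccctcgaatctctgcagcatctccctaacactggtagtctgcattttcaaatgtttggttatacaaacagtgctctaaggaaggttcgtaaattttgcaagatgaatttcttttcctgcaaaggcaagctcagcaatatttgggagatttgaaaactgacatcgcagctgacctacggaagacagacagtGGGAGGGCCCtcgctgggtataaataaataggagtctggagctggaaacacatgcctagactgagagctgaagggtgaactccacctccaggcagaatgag
Ccl19: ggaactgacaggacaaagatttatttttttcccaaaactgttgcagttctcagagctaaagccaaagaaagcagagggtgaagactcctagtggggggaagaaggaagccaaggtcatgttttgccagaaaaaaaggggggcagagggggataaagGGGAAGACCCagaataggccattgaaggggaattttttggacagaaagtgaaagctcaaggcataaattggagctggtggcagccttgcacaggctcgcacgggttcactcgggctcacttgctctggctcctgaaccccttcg
Ccl21: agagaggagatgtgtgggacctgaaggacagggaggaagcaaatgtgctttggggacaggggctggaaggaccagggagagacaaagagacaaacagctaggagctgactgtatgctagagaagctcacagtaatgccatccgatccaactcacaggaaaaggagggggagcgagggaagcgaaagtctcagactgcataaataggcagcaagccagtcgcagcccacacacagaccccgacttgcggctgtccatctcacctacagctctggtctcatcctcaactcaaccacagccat
Cxcl13 and Ccl19 each held 1 match, which began at -51 and -94 counted from the gene start, and Ccl21 held 0. The promoters of 6 members were in the set used here, of which 3 held a match, the other being Cd8a, and of all 33469 promoters of this length 19.3% did. A match is a run of letters in this window and is no evidence of binding. The promoters of Cd4, Cd79b and Ms4a1 were not analysed here. Ccl19 and Ccl21 lie close together on chromosome 5, and Cd3d and Cd3e on chromosome 8.

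Of the receptors of these chemokines, Ccr7 was detected, Cxcr5 was well above background on 0 of 12 arrays, and Ackr4, a scavenger of CCL19 and CCL21, was not matched to a probe. Ccr7 stood at 6.51, 7.39 and 6.17 in Control, 7.05, 6.86 and 7.50 in CS+LPS, 7.18, 6.93 and 7.39 in CS+LPS+NaHS and 6.51, 7.31 and 6.41 in CS+LPS+PPG. The groups overlapped, and Ccr7 differed from Control by 0.45, 0.48 and 0.05 and was not called. Of 25 genes that form or maintain lymphoid tissue 17 were detected, and 0 were called in CS+LPS or in CS+LPS+NaHS against Control by limma. At an unadjusted p under 0.05 7 of 17 passed in CS+LPS and 7 in CS+LPS+NaHS, where 25.2% and 17.1% of all probes did. Against Control 1 rose in CS+LPS+PPG, where 2.32% of all probes were called higher. This was Tnfsf13, which encodes the B cell survival factor APRIL and rose by 1.02 (SE 0.20, adjusted p = 0.0284). It was not called without Control replicate 3, with slide as a block, within slide 1, with normexp or with quantile normalization. Gpr183, a receptor that positions B cells in lymphoid tissue, and S1pr1, through which lymphocytes leave it and which endothelium also makes, differed by 0.73 and -0.70 (adjusted p = 0.0275 and 0.0342), under a 2-fold change. Pdpn and Ltbr, the most intense genes of this list, differed by -0.17 and -0.30 in CS+LPS against Control and were not called.

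NaHS and PPG were set against CS+LPS to ask what each treatment added to the exposure, and 0 of the 9 members were called in either comparison, where limma called 1.7% and 2.05% of all detected probes. At an unadjusted p under 0.05, 0 members passed with limma and 1 passed in each comparison with the methods' t-test, Ccl21 for NaHS and Cd4 for PPG, both under a 2-fold change. In CS+LPS+NaHS against CS+LPS, Ccl21 had the smallest p of the 9, with a difference of -0.73 (SE 0.33, 95% interval -1.46 to 0.0014, adjusted p = 0.518). The 2 groups did not overlap for Ccl21, which held for 8.04% of all probes in that direction. Cd79b and Ms4a1 differed by -0.02 (-0.66 to 0.61) and 0.09 (-0.42 to 0.60), and with slide as a block by -0.60 (SE 0.49) and 0.44 (SE 0.40). In CS+LPS+PPG against CS+LPS, Cd4 had the smallest p, with a difference of -0.72 (SE 0.34, adjusted p = 0.5), and its groups did not overlap, as for 8.41% of all probes in that direction. Cxcl13 differed by 0.88 (-0.53 to 2.29), and Cd79b and Ms4a1 by -0.16 (-0.80 to 0.47) and 0.22 (-0.29 to 0.72), or -0.74 (SE 0.49) and 0.56 (SE 0.40) with slide as a block. The other members of both comparisons lay between -0.34 and 0.49. These 2 comparisons share the CS+LPS arrays.

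Both comparisons with CS+LPS also crossed slides, which share a group through Control replicate 3 alone. With slide as a block 4 members were called in CS+LPS+NaHS against CS+LPS, all lower, where 19.9% of all probes were called: Cd4 (-1.70), Cd3d (-1.59), Cd8a (-1.53) and Ccl21 (-1.36). In CS+LPS+PPG against CS+LPS 3 were called, all lower, where 19.4% of probes were called: Cd4 (-2.12), Cd8a (-1.70) and Cd3d (-1.20). Each of these values rests on Control replicate 3, the array with the lowest T cell gene levels, and the slide and the group cannot otherwise be told apart. Of the 24 T cell list genes 8 were then lower and 1 higher in CS+LPS+NaHS against CS+LPS, and 5 lower and 2 higher in CS+LPS+PPG against CS+LPS. Without the block, 0 of 24 T cell genes and 0 of 19 B cell genes were called by limma in either comparison, with 3 and 2 of 24 and 2 and 1 of 19 at an unadjusted p under 0.05, which 9.67% and 10.5% of all probes passed.

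**Figure D3:**
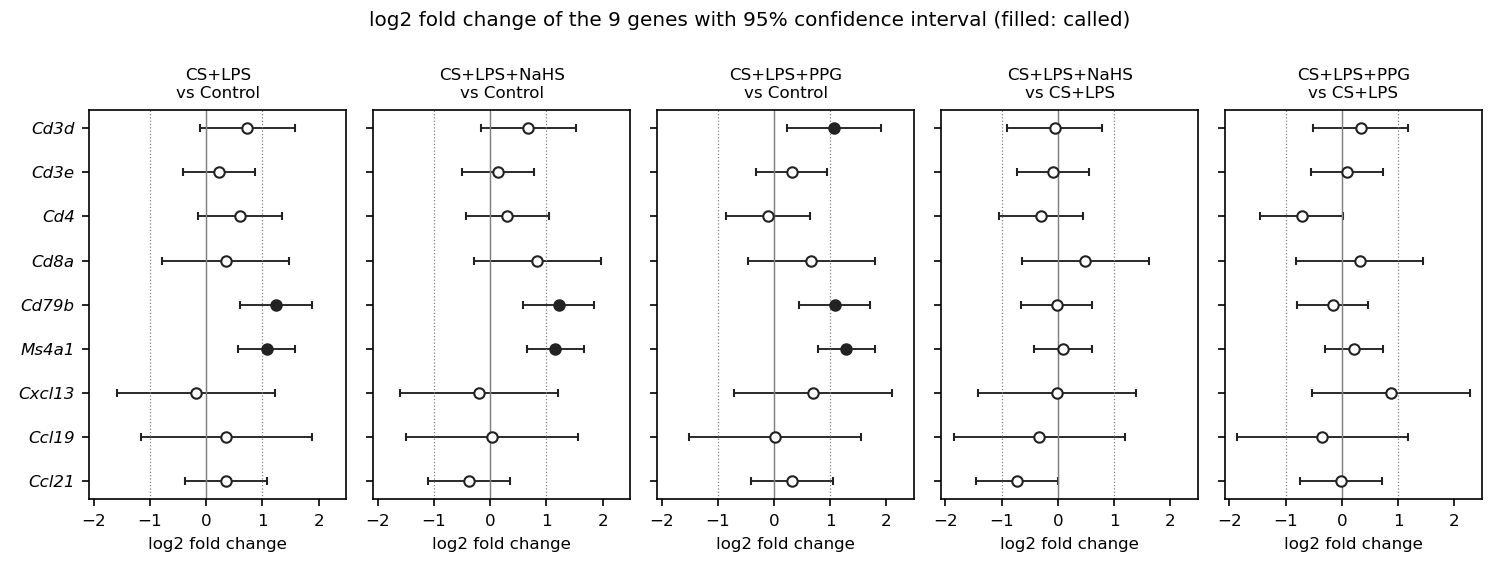
Difference between groups (horizontal axis, log2 fold change) of each of the 9 genes (vertical axis) in the 5 comparisons, with 95% confidence intervals from limma. Filled points were called and dotted lines mark a 2-fold change. Filled points appear in the 3 comparisons with Control, at 1.07 to 1.29 for Cd3d, Cd79b and Ms4a1 in CS+LPS+PPG, and in neither comparison with CS+LPS.

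Set directly against each other on slide 1, CS+LPS+NaHS and CS+LPS+PPG differed in 0 of 9 called members, with 0 at an unadjusted p under 0.05 by limma, and 0.523% of all probes were called. The largest differences, given as CS+LPS+NaHS minus CS+LPS+PPG, were Cxcl13 at -0.89 (-2.30 to 0.52) and Ccl21 at -0.71 (-1.44 to 0.02). Cd79b and Ms4a1 differed by 0.14 (-0.50 to 0.78) and -0.13 (-0.64 to 0.38).

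The members were also compared with each other over the 12 arrays. All 36 pairs of members were correlated, with p-values from 100000 permutations and adjusted over the 36. The permutations shuffled arrays across groups, so group differences that both genes share enter r and its p-value. Cd79b and Ms4a1 had r = 0.89 (permutation p = 0.00017, adjusted p = 0.00612) and rho = 0.90 (permutation p = 0.00019, adjusted p = 0.00684). Their r was 0.83 without Control replicates 1 and 3, the arrays farthest from the median of Cd79b, 0.95 on the 8 arrays of slide 1 and 0.66 after each group's mean was removed. Cd3d and Cd3e had r = 0.79 (permutation p = 0.00071, adjusted p = 0.0128) and rho = 0.69 (permutation p = 0.0153, adjusted p = 0.138). Their r was 0.81 without Control replicates 1 and 3, 0.53 on slide 1 and 0.81 within groups. Cxcl13 and Ccl19 had r = 0.76 (permutation p = 0.00502, adjusted p = 0.0515) and rho = 0.78 (permutation p = 0.00455, adjusted p = 0.0819). Without CS+LPS+NaHS replicate 3 and CS+LPS+PPG replicate 3, the lowest and highest arrays for Cxcl13, their r fell to 0.49. Both arrays also enter its values on slide 1 (0.84) and within groups (0.90). Leaving out both ends narrows the range, so the fall cannot show whether the relation rests on them. Slide 2 holds 4 arrays, too few for a value of its own. Genes of different roles were correlated as strongly, with r = 0.81 for Cd3d and Cd8a (adjusted permutation p = 0.0835) and 0.76 for Cd3d and Cd79b (adjusted permutation p = 0.0515). Without Control replicates 1 and 3 these fell to 0.24 and 0.25, while within groups they were 0.86 and 0.67. Leaving out the arrays farthest from the median of Cd3d narrows the range, so this fall too cannot show whether the relations rest on them. Beyond Cd79b with Ms4a1 and Cd3d with Cd3e no pair had an adjusted p under 0.05. Between the B cell genes and Cxcl13, the chemokine that attracts B cells, r was -0.30 for Cd79b and 0.0011 for Ms4a1 (adjusted permutation p = 0.551 and 0.997).

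**Figure D4:**
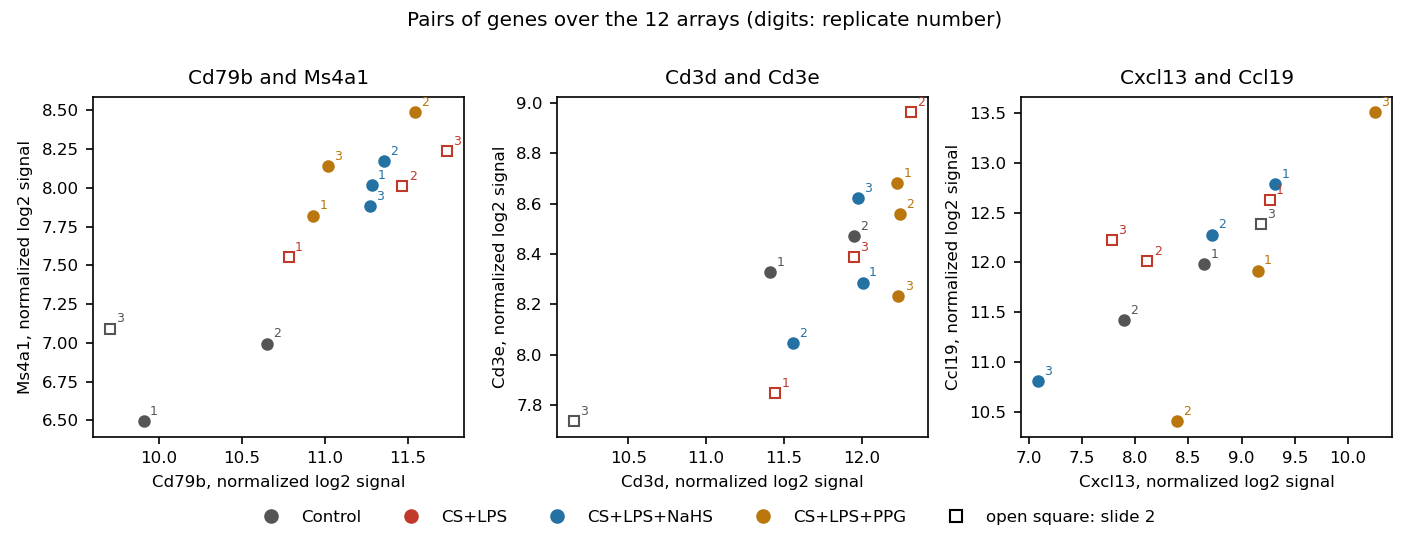
Normalized log2 signal of 3 pairs of genes, Cd79b and Ms4a1, Cd3d and Cd3e, and Cxcl13 and Ccl19, on the 12 arrays (both axes). Each point is 1 array, coloured by group, open squares lie on slide 2, and digits give the replicate number. The Control arrays sit apart at the lower left for Cd79b and Ms4a1 (r = 0.89), and CS+LPS+PPG replicate 3 and CS+LPS+NaHS replicate 3 form the ends for Cxcl13 and Ccl19 (r = 0.76).

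The named genes whose signal over the 12 arrays was most like that of a member were taken from 11984 probes detected on all arrays, as a description without a test. Nearest to Cd3e were Cd6 (r = 0.98), a T cell surface receptor, Plau (0.90) and Hibch (0.88). Nearest to Cd79b were Rhoh (0.97), a small GTPase of blood cells, Jakmip1 (0.96) and Fgd2 (0.96). Nearest to Cxcl13 were Ccl20 (0.88), a chemokine that attracts CCR6-bearing lymphocytes, Col14a1 (0.86) and Fuz (0.86). Nearest to Ccl19 were Derl3 (0.87), Chad (0.86) and again Ccl20 (0.84), and nearest to Ccl21 were Aamdc (0.90), Pcna (0.89) and Scgb1c1 (0.89).

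Markers of other tissues were read on the same arrays because a lung lobe can carry other tissue with it. They are given as the log2 of the summed signal of the detected genes named through RefSeq. Of the markers of thymus, where T cells mature, Rag2 was well above background on 0 arrays, Rag1 and Foxn1 on 1 each and Dntt on 11, and Cd1d1, which was detected on 12, is not specific to the thymus. The 4 of 6 fat markers that were detected summed to 11.69 to 13.51 in Control, to 12.00 to 12.59 on the arrays of CS+LPS, 12.13 to 12.82 in CS+LPS+NaHS and 13.00 to 13.58 in CS+LPS+PPG. The 5 of 6 detected heart muscle markers summed to 12.64 to 15.94, 13.43 to 15.12, 13.34 to 15.18 and 14.76 to 15.46 in the same order. In both lists Control replicate 3 was the highest Control array and lay among or above the CS+LPS+PPG arrays, and CS+LPS+PPG is where Cd3d and 6 T cell list genes rose, 4 of the 6 above background on all 12 arrays. Of 5 markers of lymphatic endothelium, a source of CCL21, 3 were detected, and they summed to 12.98 to 13.96 in Control and 13.37 to 13.90 in the exposed groups. The 4 of 7 detected red blood cell markers summed to 18.94 to 19.08 in Control and 18.77 to 19.38 in the exposed groups, and the 3 of 6 detected pancreas markers to 10.52 to 10.82 in Control, to 10.67 to 10.95 on the arrays of CS+LPS, 11.36 to 11.96 in CS+LPS+NaHS and 10.71 to 11.62 in CS+LPS+PPG. The 11 of 14 macrophage and dendritic cell genes summed to 17.86 to 18.48 in Control and 17.89 to 18.19 in the exposed groups, and the 8 of 11 neutrophil genes to 12.96 to 14.24 and 13.99 to 15.13. By the mean of log2 values the macrophage list lay at 10.78 to 11.64 in Control and 11.66 to 11.93 in CS+LPS, and the neutrophil list at 7.93 to 9.14 in Control and 9.07 to 9.78 in CS+LPS, so the first did not overlap and the second did. Their median differences from Control in CS+LPS, CS+LPS+NaHS and then CS+LPS+PPG were 0.72, 0.64 and 0.56 for the macrophage list, with 4, 1 and 3 of 11 called higher and 1, 0 and 0 lower. For the neutrophil list they were 0.84, 0.94 and 1.21, with 1, 2 and 3 of 8 called higher and 0 lower. In that list Ngp was well above background on 1 of 3 Control arrays and Mmp8 on 2 of 3. Both passed the filter through exposed groups, so their Control levels are uncertain. Of all detected probes 1.65%, 1.3% and 2.32% were called higher. Mpo, a neutrophil gene named only through the authors' lists, is not in these counts. It differed by -0.52, not called, and by 1.02 and 1.18, both called, in the same order. Mpo was well above background on 2 of 3 Control arrays, so its Control level is uncertain. The part of these tissues and cells in the differences of the T cell, B cell and chemokine genes was not tested.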

How the data were processed

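Lung RNA of 12 rats was hybridised in 1 colour (Cy3) to Agilent rat arrays. The authors deposited the background-corrected signal intensity of each spot from Feature Extraction 10.7 (10.7.3.1 in the file headers), and all precision is limited by 3 arrays per group. On 3 arrays the signal is stored with 3 significant digits. The authors also deposited 5 lists of differentially expressed genes with fold changes and p-values of their own; neither these nor their 60 per-array columns were used, and the lists served only to name probes.

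Here, outlier spots were left out, spots of a probe were averaged as log2 of the intensity, each array was scaled by its 75th percentile, and the mean percentile was added back. A probe was detected when at least 50% of its spots were above background, by the scanner's flag, on every array of 1 or more groups (21239 of 30367 probes). RefSeq accessions named 17514 probes through a table of build GRCr8, used for names, promoters and their coordinates, and the lists named 194. Groups were compared with limma 3.58.1 in R 4.3.3 (lmFit and eBayes over all 12 arrays, with no covariate), with Benjamini-Hochberg adjustment over the detected probes. The fit was tested on simulated data before use. A gene with several probes is given by the most intense detected one. The text names the members, their receptors, up to 5 called genes per list and comparison by p, the most intense genes that were not called, and the 3 genes most like 5 of the members. Cd3g is named in CS+LPS+PPG as 1 of those intense genes. Other list genes and tissue markers are named where they limit a value. The members and lists were chosen with earlier results of these data known.

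Alternatives were quantile normalization, another set of probes for the percentile, normexp (offset 50) on the median signal, no removal of outlier spots, a block for slide or for replicate number, values within a slide, 3 other filters, the 2 groups alone, the methods' t-test, the mean over a gene's probes and each array left out. Those for the gene lists were chosen after seeing the data.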

Additional observations from a re-analysis of the deposited data

How the results depend on the processing

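With slide as a block 12 of the 45 differences of the members changed sign, 3 of which were called with the block, for Cd8a in CS+LPS+NaHS against CS+LPS (-1.53) and for Cd3d (-1.20) and Cd8a (-1.70) in CS+LPS+PPG against CS+LPS. Each then rests on Control replicate 3. The members called in CS+LPS against Control went from 2 to 4 with slide as a block and within slide 2, and to 1 with normexp. In CS+LPS+NaHS against Control they went from 2 to 1 with normexp. In CS+LPS+PPG against Control they went from 3 to 1 with normexp, with slide as a block and within slide 1. Against CS+LPS they went from 0 to 4 in CS+LPS+NaHS and from 0 to 3 in CS+LPS+PPG with slide as a block. The cause of the normexp changes was not tested.

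Leaving out 1 array gave 1 to 3 called members in CS+LPS, 1 to 4 in CS+LPS+NaHS and 1 to 4 in CS+LPS+PPG against Control, and 0 to 0 in both comparisons with CS+LPS. The lowest counts came without Control replicate 1, CS+LPS replicate 3 (both 1 in CS+LPS) or Control replicate 3 (1 in CS+LPS+PPG), and the highest without Control replicate 2. Over 25 alternatives Cd79b was called in 25 in CS+LPS (1.04 to 1.62), in 25 in CS+LPS+NaHS (1.03 to 1.50) and in 19 in CS+LPS+PPG (0.89 to 1.36). Ms4a1 was called in 20 (0.55 to 1.26), 23 (0.61 to 1.28) and 24 (0.74 to 1.45), and Cd3d in CS+LPS+PPG in 21 (0.56 to 1.46). Many of the 25 cannot move a member's fold change and can alter only its p-value. These are the filters, the 2 groups alone, the t-test, the replicate block and the mean over a gene's probes. The same holds for arrays left out of a group that is not compared. The counts therefore overstate how far the calls were tried.

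Replicate numbers were tried as a block. The replicate block left 2, 2, 3, 0 and 0 members called in the 5 comparisons, and changed no count of members. Same-numbered arrays did not deviate together (r from -0.31 to 0.14, 2 of 18 pairs over 0.1), so the numbers do not pair the rats. Over all probes, normexp called 444, 254, 384, 96 and 122 in the 5 comparisons, no filter 2069, 1258, 1311, 654 and 852, and slide as a block 4831, 412, 660, 4224 and 4120, against 969, 567, 930, 361 and 435. The methods' t-test called 443, 279, 498, 292 and 309, and after Benjamini-Hochberg adjustment 1, 0, 0, 1 and 1.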
